A study of Mus musculus with 4 samples.

Results

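The mouse genes named Cfap (cilia and flagella associated protein), Rsph (radial spoke head or stalk component) or Tekt (tektin) were examined in pachytene spermatocytes with a knockdown of Hsf5 and in their wild-type (WT) counterparts. Members were every row of the deposited count table whose symbol was Cfap, Rsph or Tekt followed by a number. This gave 61 of 50763 genes, 48 Cfap, 7 Rsph and 6 Tekt genes, and all 61 passed the filter on low counts. Polyadenylated RNA from pachytene spermatocytes purified from testis was sequenced in 4 libraries, 2 with the Hsf5 knockdown and 2 from WT mice. Hsf5 encodes a heat shock factor, a DNA-binding transcription factor. The comparison asks how RNA levels differ between cell fractions labelled as pachytene spermatocytes, a stage of meiosis, when Hsf5 is reduced. Markers of stage and cell type also differed between the groups, as given below. Replicates are biological per the labels, which leave out the animals behind each library, the age and strain of the mice or the means of the knockdown, and p-values therefore reflect the spread among the 4 libraries alone.

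The axoneme of a motile cilium or sperm tail is a ring of doublet microtubules around a central pair. Dynein arms on the doublets make them slide, radial spokes reach from the doublets to the central apparatus and pass on the signals that shape the beat, and the nexin-dynein regulatory complex (N-DRC) ties neighbouring doublets together. Tektins and many CFAP proteins lie inside the doublet wall as microtubule inner proteins and brace it. In the male germ line many genes of the axoneme are switched on in pachytene spermatocytes, well before the tail grows out of the spermatid.

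The libraries held 42479164 and 33947608 counts in the knockdown and 39331933 and 33287428 counts in WT. Hsf5 itself stood at 287 and 238 CPM (counts scaled by library total and TMM factor) in the knockdown and at 586 and 449 CPM in WT, so neither knockdown library was near 0. Its log2 fold change was -0.98 with a standard error (SE) of 0.31 (edgeR quasi-likelihood test, adjusted p = 0.0217), but it failed the test when only library totals were used for scaling (-0.55, adjusted p = 0.115). Leaving out WT replicate 1 (-0.79, adjusted p = 0.219) or the other WT library (-1.13, adjusted p = 0.0725) also ended the call (edgeR). All 8 pachytene markers checked were lower in the knockdown libraries (summed level 832 and 795 CPM, against 10839 and 10552 CPM in WT), whereas 6 of 7 leptotene and zygotene markers were higher (2875 and 1593 CPM in the knockdown, against 792 and 628 CPM in WT). All 10 spermatid markers were lower (25.6 and 17.9 CPM in the knockdown, against 3795 and 1859 CPM in WT), and Prm2 and Smcp among them had no count in the knockdown. All 8 Sertoli cell markers were higher (2991 and 3592 CPM in the knockdown, against 131 and 342 CPM in WT), as were 6 of 6 Leydig cell, 4 of 4 macrophage, 6 of 8 spermatogonial and 3 of 4 peritubular markers, the remaining peritubular gene (Tagln) being under the filter. Summed levels were 1233 and 2476 CPM in the knockdown against 105 and 714 CPM in WT for Leydig cells, 77.6 and 29.5 against 5.90 and 5.74 CPM for macrophages, 640.2 and 590.3 against 49.9 and 65.7 CPM for spermatogonia, and 93.6 and 23.0 against 2.92 and 5.77 CPM for peritubular cells. Of 5 markers of multiciliated cells only Foxj1 passed the test and was lower, Sntn had no count in any library, and the sum was 28.1 and 18.9 CPM in the knockdown and 53.7 and 48.6 CPM in WT. Foxj1 made up 42.4 and 38.0 CPM of that WT sum. Ccno and Tppp3 did not pass, and their log2 fold changes were positive (0.38 and 0.57). In RNA of a cell fraction, fewer cells of a type and less RNA per cell cannot be told apart, and the part of these marker differences in the values that follow was not tested.

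Genes of the axoneme were lower in the knockdown in nearly every structural class. Of the 61 members, 54 fell (edgeR quasi-likelihood test, adjusted p under 0.05), none rose and 7 did not pass. None was higher at an unadjusted p under 0.05, and none rose with the DESeq2 Wald test. Across the 23594 genes tested, 33.5% were lower and 27.4% higher, so the share of members that fell, 88.5%, was well above the background. The median log2 fold change of the members was -3.72, against -0.12 for all genes tested. It was lower still for the 8 pachytene markers (-6.36) and the 10 spermatid markers (-11.01), all of which fell. The fall of the members was thus not larger than that of these germ cell markers. In 57 of 61 members the 2 knockdown values were each under the 2 WT values, a separation in this direction seen in 43.7% of all genes tested. The 61 members together made up 0.248% and 0.192% of all counts in the knockdown libraries and 1.15% and 1.07% in the WT libraries. The fitted fall was 8-fold or more in 35 members (19.6% of all genes tested), and 12 members averaged under 1 CPM in the knockdown, as did 7831 of the 23594 genes tested, a larger share than among the members. The median member kept 7.59% of its WT level.

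Scaling moved all values together. Scaled by library totals alone, the median of all genes was 0.31 and that of the members -3.29, and 51 members fell. A scaling on synaptonemal complex and cohesin genes, called axis-gene scaling here, gave medians of -0.88 for all genes and -4.51 for the members, and 58 members fell. Its list includes the leptotene and zygotene markers Sycp1 and Sycp3, at 1.27 and 0.87 (not past the test) on the log2 scale under TMM scaling. Holding such genes level lowers the values of all others, so calls made only under axis-gene scaling depend on that choice. No member rose past the threshold under either scaling.

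**Figure D1:**
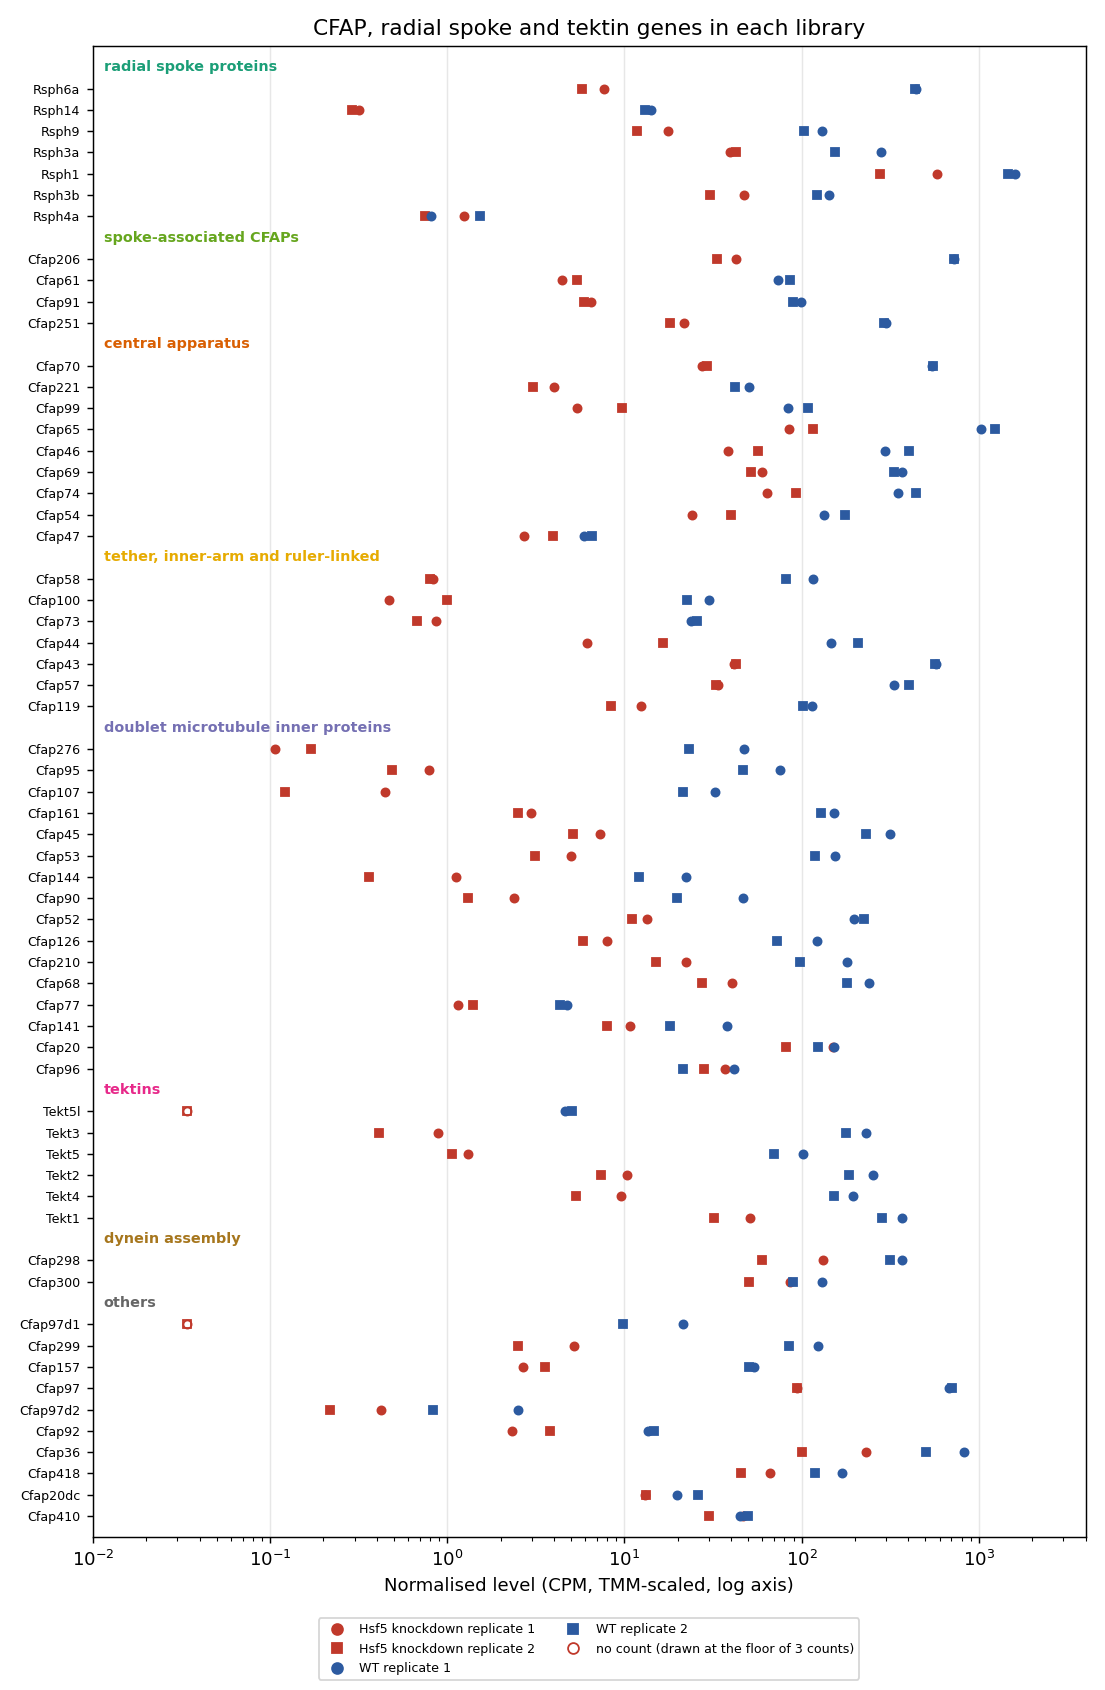
Normalised level (CPM, log axis) of each of the 61 members in the 2 Hsf5 knockdown libraries (red) and the 2 WT libraries (blue), grouped by role and ordered by fold change within a role; open symbols mark no count and stand at the floor of 3 counts over the group. Red and blue points are separated in 57 members and overlap in Rsph4a, Cfap20, Cfap96 and Cfap410.

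Because so many members moved together, the promoter windows of the members were searched for motifs of factors known in cilium and meiotic transcription. RFX factors bind the X-box of ciliary genes, heat shock factors bind paired GAA units, and MYB proteins bind a short AAC core. RefSeq windows of 300 bases (build GRCm38.p6, 250 before and 50 after the start) were matched by symbol for 37 of 61 members, with 44 windows. The RFX half-site GTTGCC, on either strand, was present in 17 of 44 member windows (38.6%) and in 12.5% of all 32817 windows. The full palindromic X-box, which contains that half-site, was searched as a string with nearly every base fixed. That string was found in 0 of 44 windows and in 0.0701% of all windows. A string so rare among all windows would seldom occur in 44, and X-boxes with other letters were not searched. Its absence therefore does not show that these windows lack an X-box. The heat shock factor dimer site TTCNNGAA was found in 3 of 44 member windows (6.82%, against 8.51% of all windows) and the arrangement GAANNTTC in 0 of 44 (7.86% of all windows). The MYB core AACNG, which can overlap the reverse half-site GGCAAC, was found in 39 of 44 (88.6%, against 80.3%). By gene, 12 of 32 members that fell and 3 of 5 that did not pass held an RFX half-site. A match describes letters and was not tested as a binding site. The dimer sites are those of heat shock factors in general, and no motif particular to HSF5 was searched. Their shares therefore do not show whether HSF5 binds these windows.

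The windows of the 4 members with the smallest p among those that hold an RFX half-site or a heat shock factor dimer site are shown to give these matches their setting, 5′ to 3′ on the gene's strand, with both kinds of match in capitals.
Cfap58 (chr19:47937462-47937761, plus strand, GRCm38.p6): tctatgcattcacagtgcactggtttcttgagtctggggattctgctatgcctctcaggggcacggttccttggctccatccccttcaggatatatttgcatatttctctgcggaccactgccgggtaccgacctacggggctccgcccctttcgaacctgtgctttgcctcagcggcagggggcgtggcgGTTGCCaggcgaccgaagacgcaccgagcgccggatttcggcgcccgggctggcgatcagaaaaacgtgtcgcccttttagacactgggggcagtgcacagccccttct
Cfap161 (chr7:83794790-83795089, minus strand, GRCm38.p6): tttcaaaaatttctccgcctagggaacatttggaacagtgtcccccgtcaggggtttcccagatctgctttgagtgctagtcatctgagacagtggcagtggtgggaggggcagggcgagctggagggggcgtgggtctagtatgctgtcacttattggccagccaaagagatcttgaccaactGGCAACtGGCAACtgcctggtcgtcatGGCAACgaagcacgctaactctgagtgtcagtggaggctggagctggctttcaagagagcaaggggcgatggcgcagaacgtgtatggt
Cfap52 (chr11:67965593-67965892, minus strand, GRCm38.p6): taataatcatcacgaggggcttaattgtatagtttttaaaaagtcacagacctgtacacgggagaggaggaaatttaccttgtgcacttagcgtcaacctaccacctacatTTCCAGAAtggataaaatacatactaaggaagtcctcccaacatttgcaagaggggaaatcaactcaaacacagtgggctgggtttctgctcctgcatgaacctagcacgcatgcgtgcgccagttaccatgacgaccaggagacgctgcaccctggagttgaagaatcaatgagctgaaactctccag
Tekt2 (chr4:126325639-126325938, minus strand, GRCm38.p6): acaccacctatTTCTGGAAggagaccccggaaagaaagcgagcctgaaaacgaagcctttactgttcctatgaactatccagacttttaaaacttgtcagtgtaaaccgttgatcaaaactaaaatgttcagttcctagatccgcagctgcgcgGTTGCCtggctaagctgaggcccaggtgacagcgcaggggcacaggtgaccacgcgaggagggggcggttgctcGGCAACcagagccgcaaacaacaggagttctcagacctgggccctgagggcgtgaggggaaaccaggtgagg
Counted from the start, the half-site of Cfap58 began at -59 and the 3 of Cfap161 at -66, -59 and -39. Cfap52 held no half-site and had the dimer match TTCCAGAA at -139. In the window shown, Tekt2 held half-sites at -96 and -22 and the dimer match TTCTGGAA at -239. Tekt2 has further windows from other annotated starts. In another of them the half-sites lay at -138 and -64 with no dimer match, and the last held neither motif.

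Radial spoke genes covered a range of falls. Of the 7, 6 fell and 1 did not pass, with a median log2 fold change of -2.40. Rsph6a, whose product is a spoke head component found in sperm, had 7.71 and 5.79 CPM in the knockdown libraries, against 442 and 438 CPM in WT. The WT replicates were almost equal, and the log2 fold change was -6.02 (SE 0.37) with adjusted p = 6.2e-06 (edgeR). Rsph4a, its paralog in the spoke heads of airway and other motile cilia, was close to the detection limit in both groups, at 1.25 and 0.751 CPM in the knockdown and 0.805 and 1.53 CPM in WT. The Rsph4a values overlapped, the log2 fold change was -0.22 (SE 0.69) (edgeR, adjusted p = 0.804), and its sign changed under scaling by totals alone and when WT replicate 2 or knockdown replicate 2 was left out. Rsph14, a spoke component, had 0.318 and 0.291 CPM in the knockdown and 14.2 and 13.1 CPM in WT, a log2 fold change of -5.47 (SE 0.55). The spoke head gene Rsph9 had 17.6 and 11.8 CPM in the knockdown and 130.4 and 103 CPM in WT, a log2 fold change of -2.99 (SE 0.35). Both groups were well apart in each of these genes except Rsph4a.

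Rsph1, a spoke head protein, had the highest level of the Rsph genes per length of transcript in both groups. Its level was 489 and 233 CPM per kilobase of the longest GENCODE M21 transcript in the knockdown, against 1351 and 1219 CPM per kilobase in WT, whereas Rsph6a had 3.27 and 2.46 CPM per kilobase in the knockdown and 188 and 186 CPM per kilobase in WT. In CPM, Rsph1 had 582 and 278 in the knockdown and 1609 and 1452 in WT, a log2 fold change of -1.83 (SE 0.41) (edgeR, adjusted p = 0.00411), so that 28.1% of the WT mean remained, against 1.53% for Rsph6a. Rsph3a and Rsph3b encode nearly the same spoke stalk protein, so reads may have been split between them. Rsph3a had 39.4 and 42.8 CPM in the knockdown and 279.6 and 155 CPM in WT (log2 fold change -2.40, SE 0.35), and Rsph3b had 47.4 and 30.2 CPM in the knockdown and 143 and 123 CPM in WT (log2 fold change -1.77, SE 0.33). Both genes fell, and the WT replicates of Rsph3a differed more than those of Rsph3b.

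The 4 CFAP genes whose products sit at the base of the spokes fell by nearly the same amount. Cfap206, which docks a spoke in ciliates, had 42.5 and 33.2 CPM in the knockdown and 724 and 721 CPM in WT. Cfap251 had 21.7 and 18.1 CPM in the knockdown and 299 and 290.2 CPM in WT. Cfap251, Cfap91 and Cfap61 are counterparts of the calmodulin and spoke associated complex of Chlamydomonas. Cfap91 had 6.46 and 5.91 CPM in the knockdown and 99.6 and 88.9 CPM in WT, and Cfap61 had 4.43 and 5.41 CPM in the knockdown and 73.3 and 86.3 CPM in WT. The log2 fold changes of the 4 genes ran from -4.25 to -3.88, with SEs of 0.32 to 0.36, and each kept between 5.24% and 6.77% of its WT level. Differences between the genes were not tested.

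Of the 9 central apparatus genes 8 fell and 1 did not pass, with a median log2 fold change of -2.88. Cfap70 had 27.3 and 29.1 CPM in the knockdown and 544 and 555 CPM in WT, the largest fall of the 9 (-4.28, SE 0.33). Cfap65, whose loss in mice and humans gives malformed sperm tails, had 84.9 and 116 CPM in the knockdown and 1033 and 1231 CPM in WT (-3.49, SE 0.36). Cfap221, known from mice with primary ciliary dyskinesia, had 3.98 and 3.03 CPM in the knockdown and 50.3 and 42.1 CPM in WT (-3.72, SE 0.39). All 3 fell by 8-fold or more, and their groups lay far apart. Cfap99 had 5.38 and 9.67 CPM in the knockdown and 83.7 and 109 CPM in WT (-3.68, SE 0.40). Cfap46, Cfap54 and Cfap74, which with Cfap221 form the C1d projection in Chlamydomonas, fell as well, with log2 fold changes of -2.88 (SE 0.35), -2.27 (SE 0.35) and -2.34 (SE 0.33), as did Cfap69 (-2.66, SE 0.30). Cfap46, Cfap54 and Cfap74 thus kept 13.6%, 20.7% and 19.7% of their WT level, and Cfap221 7.59%.

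Cfap47 was the member of this class that did not pass, at 2.71 and 3.95 CPM in the knockdown and 5.90 and 6.53 CPM in WT (-0.90, SE 0.50; edgeR, adjusted p = 0.146), although the groups did not overlap. It was the 1 X-linked gene among the 46 members with a chromosome in the RefSeq table, and the 817 X-linked genes tested had a median log2 fold change of 2.89, with 555 higher and 135 lower.

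All 7 genes grouped as tether, inner-arm and ruler-linked fell by 8-fold or more, with a median log2 fold change of -3.98. Cfap58, needed in mice for a normal sperm tail, had 0.826 and 0.80 CPM in the knockdown and 116 and 81.6 CPM in WT, a log2 fold change of -6.92 (SE 0.42) (edgeR, adjusted p = 6.15e-06). Cfap43, which with Cfap44 tethers an inner dynein to the doublet, had 41.5 and 42.5 CPM in the knockdown and 576 and 564 CPM in WT (-3.76, SE 0.32). Replicates of Cfap43 were close in both groups. Cfap44 had 6.12 and 16.4 CPM in the knockdown and 147 and 208 CPM in WT (-3.98, SE 0.49), with its knockdown replicates further apart than those of Cfap43. It stood at -3.37 without knockdown replicate 1 and at -4.86 without knockdown replicate 2. Cfap57, which anchors inner dyneins in Chlamydomonas, had 33.6 and 32.8 CPM in the knockdown and 332 and 402 CPM in WT (-3.47, SE 0.31). Cfap73 and Cfap100 encode subunits of the modifier of inner arms complex of Chlamydomonas. Cfap73 had 0.868 and 0.679 CPM in the knockdown and 23.8 and 25.6 CPM in WT, and Cfap100 had 0.466 and 0.994 CPM in the knockdown and 29.8 and 22.6 CPM in WT. Their log2 fold changes, -4.99 (SE 0.47) and -5.17 (SE 0.55), were close, and the difference between them was not tested. Cfap100 was at -5.80 without knockdown replicate 2. Cfap119, listed here although its Chlamydomonas counterpart belongs to the central apparatus, had 12.5 and 8.41 CPM in the knockdown and 115 and 101 CPM in WT (-3.37, SE 0.35).

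Genes of the doublet microtubule inner proteins covered a wide range. Of the 16, 14 fell and 2 did not pass, with a median log2 fold change of -4.14 and single values from -7.97 to 0.05. Cfap161 had 2.99 and 2.52 CPM in the knockdown and 151 and 129 CPM in WT (-5.67, SE 0.35; edgeR, adjusted p = 6.49e-06). Cfap45 had 7.31 and 5.11 CPM in the knockdown and 317 and 230.3 CPM in WT (-5.46, SE 0.38). Cfap53, also required for left-right asymmetry, had 5.02 and 3.13 CPM in the knockdown and 154 and 119.6 CPM in WT (-5.07, SE 0.39). The share of the WT level left was 1.96% for Cfap161, 2.27% for Cfap45 and 2.98% for Cfap53. Cfap95 had 0.784 and 0.485 CPM in the knockdown and 75.8 and 46.6 CPM in WT (-6.58, SE 0.50). Cfap276 had 0.106 and 0.170 CPM in the knockdown and 47.0 and 23.2 CPM in WT (-7.97, SE 0.63), and Cfap107 had 0.445 and 0.121 CPM in the knockdown and 32.3 and 21.3 CPM in WT (-6.53, SE 0.67). Their knockdown values rest on 5 and 7 counts for Cfap276 and on 21 and 5 counts for Cfap107, whose log2 fold change was -7.67 without knockdown replicate 1 and -5.89 without knockdown replicate 2.

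The other members of this class included genes that fell and both that did not pass. Cfap52 (-4.11, SE 0.32), Cfap90 (-4.17, SE 0.56), Cfap144 (-4.51, SE 0.67), Cfap126 (-3.82, SE 0.40), Cfap210 (-2.91, SE 0.39) and Cfap68 (-2.62, SE 0.34) kept between 4.33% and 16.3% of their WT levels. Without WT replicate 1 the log2 fold change of Cfap90 was -3.45, and that of Cfap144 was -5.46 without knockdown replicate 1 and -3.92 without knockdown replicate 2. Cfap141 had 10.7 and 7.93 CPM in the knockdown and 38.1 and 18 CPM in WT (-1.59, SE 0.46), which was not called without WT replicate 1 (-0.96; edgeR, adjusted p = 0.13), without knockdown replicate 2 (0.0666) and under scaling by totals alone (0.0502). Cfap77 had 1.14 and 1.41 CPM in the knockdown and 4.71 and 4.31 CPM in WT (-1.82, SE 0.55), which was not called without knockdown replicate 1 (edgeR, adjusted p = 0.0718) and under scaling by totals alone (0.0565). Cfap20, a protein of the inner junction of the doublet that also acts outside cilia, had 151 and 82.1 CPM in the knockdown and 153 and 123 CPM in WT, and Cfap96 had 37.1 and 28.0 CPM in the knockdown and 41.4 and 21.5 CPM in WT. Both sets of values overlapped, at -0.24 (SE 0.35) for Cfap20 and 0.05 (SE 0.40) for Cfap96 on the log2 fold change scale (edgeR, adjusted p = 0.564 and 0.92), and both signs changed with the settings. Cfap20 passed as lower, by 1.09 on the log2 scale, under axis-gene scaling (edgeR, adjusted p = 0.0207).

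**Figure D2:**
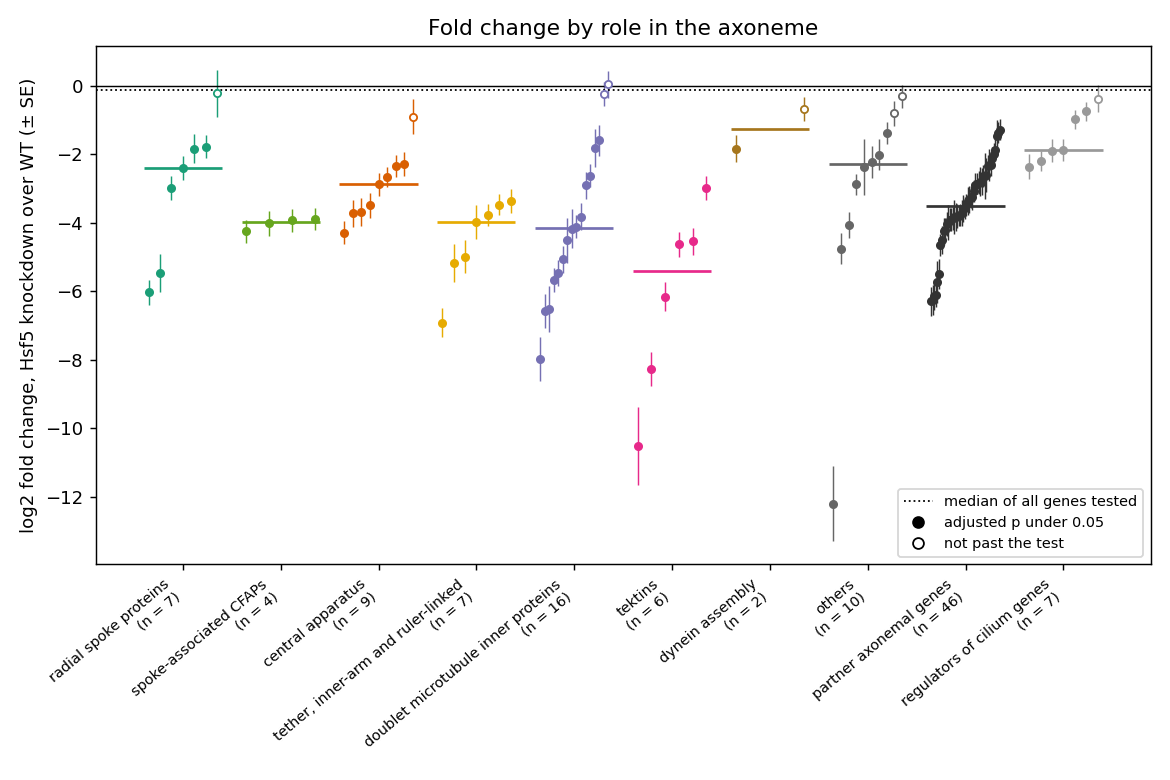
Log2 fold change, Hsf5 knockdown over WT, with its standard error for every member by role, for the 46 partner axonemal genes tested and for 7 regulators of cilium genes; horizontal bars are medians, filled points passed the test and the dotted line is the median of all genes tested (-0.12). Tektins have the lowest median (-5.39), and the 7 members with open points did not pass. The points of Cfap97d1 and Tekt5l, which had no count in the knockdown, are fitted values and not measured folds. Their bounds on the log2 scale are -8.89 and -7.15.

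All 6 tektin genes fell, and they had the lowest median of the classes, -5.39. Tektins form filaments inside the doublet wall. Tekt3 had 0.889 and 0.412 CPM in the knockdown and 231 and 177 CPM in WT, a log2 fold change of -8.27 (SE 0.49) (edgeR, adjusted p = 6.06e-06), with 0.319% of the WT level left. Without knockdown replicate 1 the log2 fold change of Tekt3 was -8.86. Tekt5, a tektin of the sperm tail, had 1.31 and 1.07 CPM in the knockdown and 101 and 69.7 CPM in WT (-6.16, SE 0.42). Tekt2 had 10.4 and 7.37 CPM in the knockdown and 254 and 184 CPM in WT (-4.62, SE 0.37), and Tekt4 had 9.51 and 5.36 CPM in the knockdown and 195 and 152 CPM in WT (-4.54, SE 0.40). Loss of either Tekt2 or Tekt4 impairs sperm movement in mice. Their falls were close, and the difference between them was not tested. Tekt1 fell least of the tektins, with 51.1 and 31.8 CPM in the knockdown and 366 and 285 CPM in WT (-2.97, SE 0.35). Tekt5l had no count in the knockdown and 4.62 and 5.04 CPM in WT, at least 142-fold lower against the floor of 3 counts over the knockdown group (0.0339 CPM). That bound was 66.2-fold without knockdown replicate 1 and 75.8-fold without knockdown replicate 2, since a floor over 1 library is higher.

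Per kilobase of transcript the order of the tektins with a known length, which leaves out Tekt5l, differed between the groups. In the knockdown Tekt1 led with 35.3 and 22.0 CPM per kilobase, followed by Tekt2 (6.73 and 4.78), Tekt4 (6.19 and 3.49), Tekt5 (0.728 and 0.591) and Tekt3 (0.509 and 0.236). In WT Tekt1 had 253 and 197 CPM per kilobase, Tekt2 164 and 119.5, Tekt3 132 and 101, Tekt4 127 and 98.9 and Tekt5 56.3 and 38.7. Tekt2 and Tekt4 overlapped in the knockdown and Tekt2, Tekt3 and Tekt4 overlapped in WT. Among the tektins with a length, Tekt3 lay last in the knockdown and in the middle of the order in WT.

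Both dynein assembly genes kept a larger share of their WT level than the median member (7.59%), at 27.9% for Cfap298 and 62.4% for Cfap300. Some members of other classes kept as much or more, among them Rsph1 (28.1%) and Cfap20 (84.4%). Cfap298 had 131 and 59.9 CPM in the knockdown and 369 and 317 CPM in WT (-1.84, SE 0.40; edgeR, adjusted p = 0.00318). Without knockdown replicate 1 it was at -2.44. Cfap300 had 86.2 and 50.2 CPM in the knockdown and 129.6 and 89.0 CPM in WT (-0.68, SE 0.35; edgeR, adjusted p = 0.121). The knockdown libraries of both genes lay below the WT libraries, and Cfap300 did not pass the test, although it passed without knockdown replicate 1 (-1.04, adjusted p = 0.0353) and under axis-gene scaling (-1.51, adjusted p = 0.00713). Products of both genes act in the cytoplasm in the assembly of dynein arms.

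Among the 10 remaining members, 8 fell and 2 did not pass. Cfap97d1, needed in mice for the sperm axoneme, had no count in the knockdown and 21.4 and 9.80 CPM in WT, at least 473-fold lower against the same floor. The bound was 289-fold without WT replicate 1, 221-fold without knockdown replicate 1 and 253-fold without knockdown replicate 2. Cfap299 had 5.17 and 2.52 CPM in the knockdown and 123 and 85.3 CPM in WT (-4.76, SE 0.46). Cfap157, needed in mice for sperm but not for other motile cilia, had 2.69 and 3.54 CPM in the knockdown and 54.0 and 50.5 CPM in WT (-4.07, SE 0.39). Cfap97 had 94.1 and 94.3 CPM in the knockdown and 675 and 705 CPM in WT (-2.87, SE 0.31). In these genes the groups lay far apart, and replicates of Cfap97 differed little in either group. Cfap36, which binds the small GTPase ARL3, had 230.1 and 100.3 CPM in the knockdown and 827 and 500.4 CPM in WT (-2.01, SE 0.45), and Cfap418, known from retinal disease, had 66.3 and 45.2 CPM in the knockdown and 169 and 119 CPM in WT (-1.37, SE 0.33). Cfap36 was at -2.64 without knockdown replicate 1, and the call of Cfap418 was lost without WT replicate 1 (edgeR, adjusted p = 0.0516). Cfap92 fell by 2.22 (SE 0.47) on the log2 scale. Cfap97d2, with 0.424 and 0.218 CPM in the knockdown and 2.50 and 0.834 CPM in WT, had a log2 fold change of -2.36 (SE 0.81) and was not called without WT replicate 1 (-1.38; edgeR, adjusted p = 0.356), without knockdown replicate 2 (0.111) and under scaling by totals alone (0.0637).

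The last pair kept more of their WT level. Cfap410, which also acts outside motile cilia, had 46.6 and 29.9 CPM in the knockdown and 44.6 and 49.8 CPM in WT (-0.30, SE 0.34; edgeR, adjusted p = 0.459), and its values overlapped. Its sign changed under scaling by totals alone (0.12), and it passed as lower under axis-gene scaling (-1.14, adjusted p = 0.0427). Cfap20dc had 13.1 and 13.2 CPM in the knockdown and 19.8 and 26.2 CPM in WT (-0.80, SE 0.37; edgeR, adjusted p = 0.0878), and did not overlap. It passed with the DESeq2 Wald test (-0.86, adjusted p = 0.0444) and under axis-gene scaling (-1.57, edgeR adjusted p = 0.0344).

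Genes for partner proteins of the same structures fell too. A list of 47 other genes of the N-DRC, spokes, central pair, doublet ruler and doublet lumen had 46 that passed the filter on low counts. All 46 were lower (33.5% of all genes tested), with a median log2 fold change of -3.52 and single values from -6.29 to -1.28. The partner list and the regulator list below were chosen with earlier results of these data known, so neither is independent support for the members. Of the N-DRC, Tcte1 had 2.24 and 4.17 CPM in the knockdown and 229 and 273 CPM in WT (-6.29, SE 0.43), and Fbxl13 changed by -5.50 (SE 0.44) on the log2 scale. Of the spoke genes, Dnajb13, a chaperone-like spoke protein, had 6.99 and 7.0 CPM in the knockdown and 146 and 112 CPM in WT (-4.20, SE 0.33), close to the median of the spoke-base genes. Lrrc23, a spoke protein of sperm, changed by -4.05 (SE 0.35). In the central pair, Spag16 (-3.91, SE 0.33) and the kinesin gene Kif9 (-3.78, SE 0.32) fell. Ccdc40, part of the ruler that sets the axonemal repeat, had 10.5 and 12.0 CPM in the knockdown and 274 and 292 CPM in WT (-4.65, SE 0.32), and Ccdc146 changed by -4.50 (SE 0.40). Among the other microtubule inner protein genes, Efcab6 (-6.10, SE 0.35) and Saxo4 (-6.14, SE 0.40) fell as far as the deeper members did.

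Genes of regulators of cilium formation and of meiotic transcription were lower as well. Of 9 listed, 7 passed the filter on low counts (Mcidas and Gmnc did not), and 6 of the 7 were lower (33.5% of all genes tested), with a median log2 fold change of -1.88. Rfx2, needed for spermatid formation, had 177 and 154 CPM in the knockdown and 523 and 692 CPM in WT (-1.88, SE 0.32). Foxj1, the regulator of motile cilia, had 8.77 and 6.91 CPM in the knockdown and 42.4 and 38.0 CPM in WT (-2.36, SE 0.37). Tcfl5, a meiotic transcription factor, had 211 and 136 CPM in the knockdown and 648 and 642 CPM in WT (-1.90, SE 0.34). All 3 stood well below WT without nearing 0. Rfx4 changed by -2.19 (SE 0.29). Mybl1, a regulator of pachytene genes, had 85.0 and 82.9 CPM in the knockdown and 153 and 177 CPM in WT (-0.97, SE 0.28; edgeR, adjusted p = 0.0136), which was not called without WT replicate 1 (0.063), without WT replicate 2 (0.152) and under scaling by totals alone (0.102). Rfx1 changed by -0.75 (SE 0.29) (edgeR, adjusted p = 0.0465), and leaving out any 1 library ended its call. Scaling by totals alone (-0.31; edgeR, adjusted p = 0.351) and fitting without the low-count filter (-0.71, adjusted p = 0.117) ended it too. Rfx3 did not pass (-0.37, SE 0.39; adjusted p = 0.43).

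**Figure D3:**
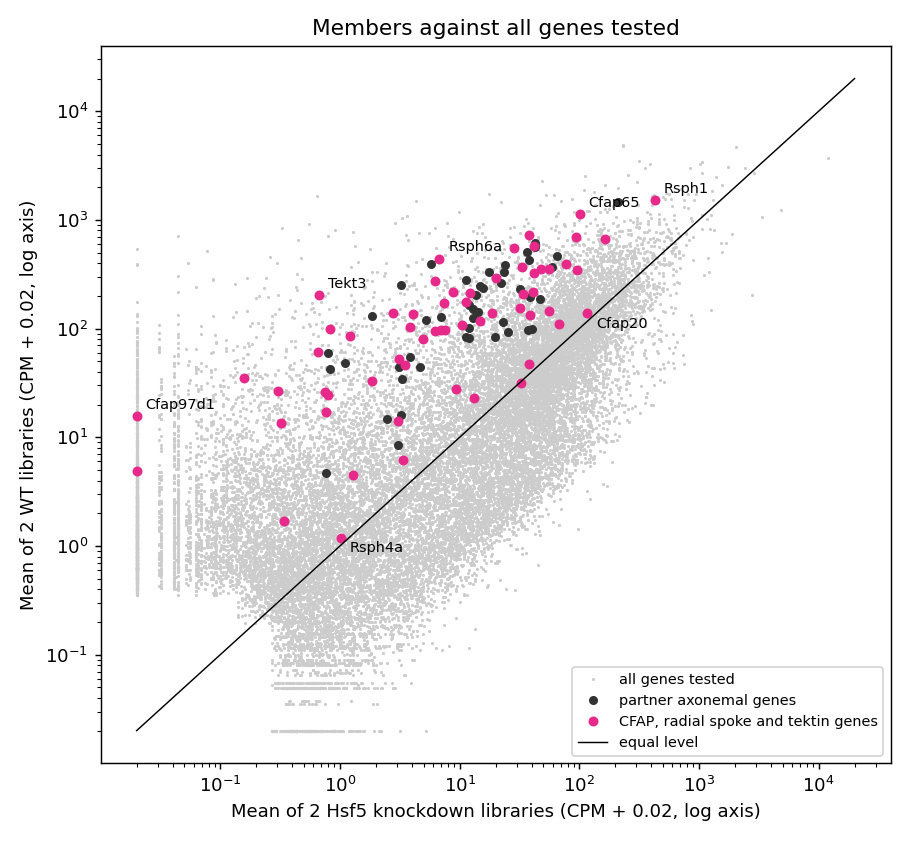
Mean level of each gene in the 2 Hsf5 knockdown libraries (horizontal) and in the 2 WT libraries (vertical) (CPM plus 0.02, log axes), for all 23594 genes tested (grey), 46 partner axonemal genes (black) and the 61 members (pink). Genes above the line of equal level were lower in the knockdown; 60 of 61 lie above it, Cfap96 does not, and Cfap20 and Rsph4a lie close to it.

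Replicates of 1 group also differed by role, and in several roles mostly in the same sense in both groups. The tether, inner-arm and ruler-linked class did not follow this. There 1 of 7 genes was higher and 2 were lower in replicate 2 in both groups. In the central apparatus class 7 of 9 genes were higher in replicate 2 than in replicate 1 both in the knockdown and in WT, with median log2 ratios of replicate 2 to replicate 1 of 0.54 in the knockdown and 0.25 in WT. In the doublet microtubule inner protein class 13 of 16 genes were lower in replicate 2 in both groups, with medians of -0.53 in the knockdown and -0.65 in WT. The 5 tektins with counts in all libraries were lower in replicate 2 in both groups, with medians over the class of -0.68 in the knockdown and -0.37 in WT. The spermatid markers, most of which were nearly absent from the knockdown, had a median of -0.96 in WT. Cfap97d1, Cfap276, Cfap90, Cfap141 and Cfap97d2 had log2 ratios between -1.59 and -1.02 in WT, as low as the spermatid markers. In all 5 genes both knockdown values nonetheless lay below both WT values.

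**Figure D4:**
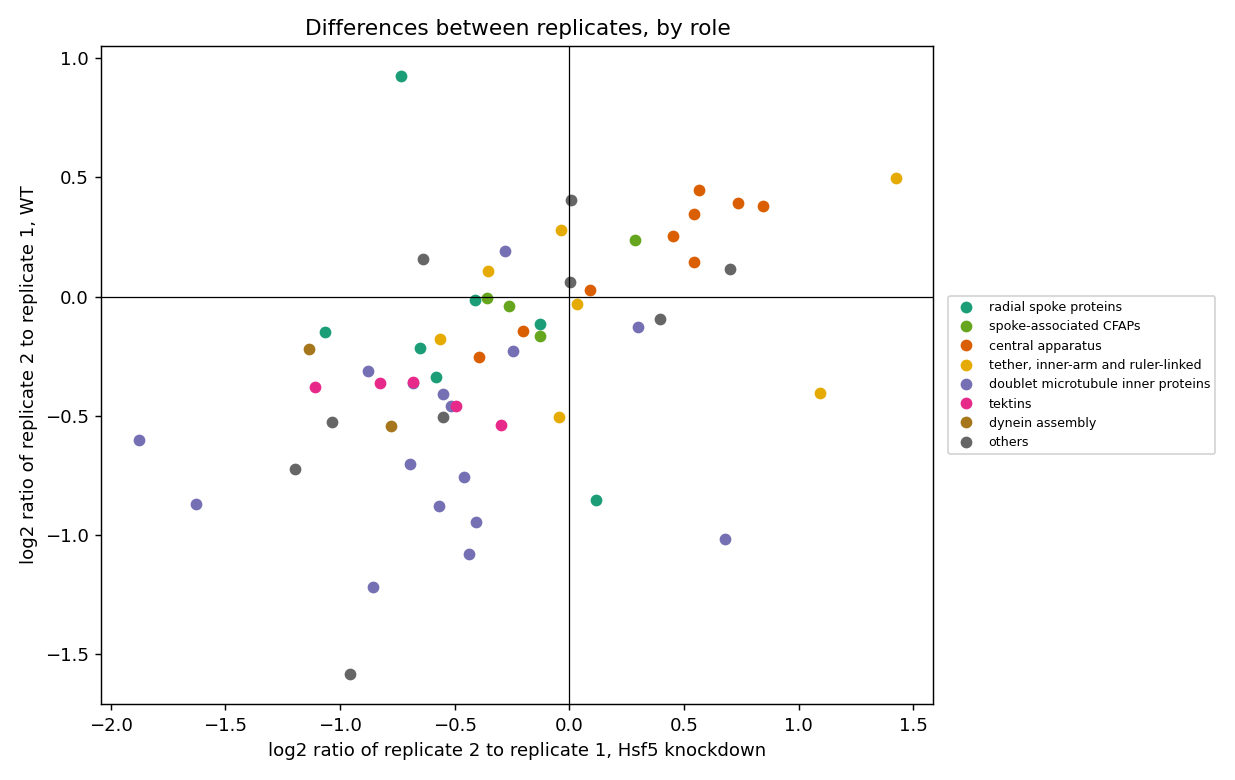
Log2 ratio of replicate 2 to replicate 1 in the Hsf5 knockdown (horizontal) and in WT (vertical) for the 59 members with a count in every library, coloured by role. Central apparatus genes lie mainly at the upper right and doublet microtubule inner protein genes at the lower left.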

How the data were processed

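Polyadenylated RNA of 4 libraries was sequenced, and the authors deposited raw read counts per gene, 1 column per library, matched to the labels by name. The tools named in the submitters' processing notes are HISAT2 2.2.1, Trim Galore 0.6.10, DESeq2 1.46.0 and featureCounts 1.5.3, and the build is mm39. Which annotation and strand setting were used, and how multimapping reads were handled, is not stated there, so near-identical copies (Rsph3a and Rsph3b) and overlapping genes are less certain.

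The test was the quasi-likelihood F test of edgeR 4.0.16 (R 4.3.3), knockdown over WT, after TMM scaling and the filterByExpr filter, which kept 23594 of 36809 genes with any count. P-values were adjusted by the Benjamini-Hochberg method across all genes tested, and calls were made at 0.05 with no minimum fold. Each SE was derived from the fold change and its F statistic. The fit was tested on simulated data. Alternatives were other scalings and filters, the DESeq2 1.42.0 Wald test, a replicate block, a fold of at least 2 and leaving out each library. No library was a repeat deposit: the chi-square between replicates, divided by its degrees of freedom, was 123 in the knockdown and 57.0 in WT. Bounds for genes without a count cover counting error only.

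Every member is accounted for. Values are given for the 4 members of each role with the smallest p and for those that did not pass, and further members where a pattern is described. Among partners the 2 with the smallest p per structure were named. The members, roles and lists were chosen with earlier results of these data known. Levels per length used the longest GENCODE M21 transcript, found for 43 of 61 members (70.5%), so per-length levels are given for Rsph and Tekt genes only. Chromosomes and promoter windows came from RefSeq (GRCm38.p6), which precedes the build of the counts, and were matched by symbol. In 38 of 41 member windows checked, the last 40 bases lay in a transcript of the gene in the sense direction.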

Additional observations from a re-analysis of the deposited data

How the results depend on the processing

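The number of members that fell was 54. It was 51 when scaled by totals alone, 58 under axis-gene scaling, 53 where a mean of 1 CPM was required, 55 with the DESeq2 Wald test, and 51 to 54 without 1 of the libraries. No member rose under any of these settings. Of the 46 partner genes tested, 44 to 46 were lower under each alternative and none rose. Across all genes 6467 were higher, against 2916 under axis-gene scaling, the 1 count that moved by over 1.5 times. Signs changed only for genes that had not passed. Cfap96 was at -0.0057 with DESeq2 size factors, -0.0057 with the DESeq2 Wald test, -0.0093 at a mean of 1 CPM, -0.72 under axis-gene scaling, and -0.32 to 0.59 without 1 of the libraries. Rsph4a was at 0.20 by totals alone and -0.62 to 0.34 without 1 of the libraries, and Cfap20 at 0.18 by totals alone and -0.67 to 0.14 without 1 of the libraries. Cfap410 (0.12) and Rfx3 (0.079) changed sign by totals alone. The causes were not tested. Where a library was left out, its group's lone library was assumed to vary like the other group.

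With the replicate number as a block, 56 members fell, all 54 of the main comparison and also Cfap20dc and Cfap300, and across all genes 8351 were lower and 7016 higher. The labels do not say that a number marks a shared batch or animal. The deviations of same-numbered libraries from their group means correlated at 0.211 over 23594 genes and at 0.467 over the members, with only 2 pairs. Having 2 libraries per group limits the precision, and for Rsph4a and Cfap97d2, at or below a few CPM, a small difference was not detectable at this depth.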

Other observations

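The differences between replicates that went by role within the members also went by transcript length over the whole table. Among 11726 genes with a mean of at least 5 CPM and a GENCODE M21 length (94.1% of the genes at that level), the median log2 ratio of replicate 2 to replicate 1 was -0.66 in the knockdown and -0.27 in WT for the 737 genes with a longest transcript under 1000 bases. It was 0.23 in the knockdown and 0.23 in WT for the 3681 genes of 4000 to 8000 bases, and 0.65 in the knockdown and 0.48 in WT for the 702 genes from 8000 bases on. Fewer than 80% of the members had a length, so the same check within the members is void. Because numbered replicates have no order, these ratios describe the libraries and not a trend.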
